A study of Mus musculus with 18 samples.

Results

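Liver makes triglyceride by adding fatty acids to glycerol 3-phosphate, and 10 genes of that route are described here. They are Gpd1, Gpam, Gpat3, Gpat4, Agpat2, Lpin1, Lpin2, Lpin3, Dgat1 and Dgat2. Members were found by the gene name and RefSeq accession that the array files give each probe. The files list Gpat3 as Agpat9 and Gpat4 as Agpat6. The 10 genes had 12 of the 39429 non-control probes and were 10 of 31709 gene names on the array.

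RNA came from the liver of 18 male C57BL/6J mice, with 1 array of 1 colour per mouse. Mice were 8 weeks old when they were assigned at random to a high-fat diet and 13 weeks old after 5 weeks on it. The linseed oil group (LIN, n = 8) ate fat with 9.7% saturated, 22.5% monounsaturated and 66.7% polyunsaturated fatty acids, mostly the n-3 fatty acid alpha-linolenic acid (49.7%). The palm oil group (PALM, n = 10) ate fat with 55.6% saturated, 34.8% monounsaturated and 8.8% polyunsaturated fatty acids. Both diets gave 51.1% of energy as lipid, 16.7% as protein and 32.1% as carbohydrate. The comparison asks how expression in the liver differs between a diet rich in an n-3 fatty acid and one rich in saturated fatty acids.

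The route starts when the cytosolic enzyme GPD1 reduces dihydroxyacetone phosphate to glycerol 3-phosphate. Acyltransferases of the GPAT and AGPAT families add the first and the next acyl chain to give phosphatidic acid, lipins remove its phosphate to give diacylglycerol, and DGAT enzymes add the last chain. In liver the product is stored in lipid droplets or leaves the cell in very low density lipoprotein, and diacylglycerol and phosphatidic acid are also the branch points to phospholipids.

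The probes are 60 bases long, and each reads only the short stretch of transcript it matches. The first 30 bases are shown, 5′ to 3′, for the probes of the genes that the results turn on, namely Gpat3 and Gpd1, which passed the test, and Lpin1, which varied most between mice. Positions are those of the array annotation on mouse build mm9. The Gpat3 probe lay at chr5:101328054-101328113 on the plus strand and the Gpd1 probe at chr15:99555334-99555393 on the plus strand. The Lpin1 probes lay at chr12:16543695-16543754 and chr12:16542515-16542574, both on the minus strand. Their place in exon or UTR was not assigned here.
Gpat3 probe: ccggagcaaccctgtgtagaaagtgaactg
Gpd1 probe: acagattccaacaccttaacctatgtttgc
Lpin1 probe, brighter: aggtctcatgtggtccacatagttcacagg
Lpin1 probe, dimmer: attatccatgaatgaggcctaatgacagtg

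Signals are given as log2 of the processed signal minus the array's own 75th percentile, so a value of 0 equals that percentile. This scaled signal is compared between mice for 1 probe at a time and not between probes. Differences are linseed minus palm, ± SE from limma, with p-values adjusted by the Benjamini-Hochberg method over all genes. The percentile was 117 to 204 intensity units and 17258 to 22445 probes per array were well above background. All 10 hepatocyte markers checked were well above background on all 18 arrays. The fit covered 15949 genes, of which 121 (0.759%) had an adjusted p under 0.05 (0.571% higher and 0.188% lower on linseed oil) and 1619 (10.2%) had an unadjusted p under 0.05. The median difference of all genes was -0.0038. In RNA from whole tissue, fewer cells of a type and less RNA per cell cannot be told apart.

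Of the route's genes, Gpat3 and Gpd1 were higher on linseed oil and the others did not pass the test. Of the 10 genes 9 could be tested, 2 passed, both higher on linseed oil, where 0.571% of all genes passed in that direction and 0.759% in either. A further pair, Gpat4 and Dgat1, had an unadjusted p under 0.05 and did not pass after adjustment, which makes 4 of 9 beside 10.2% of all genes. The members were chosen with earlier results of these data known, so these counts describe the genes and are no test of the route. The median difference of the 9 genes was 0.19. The standing probe of each gene was well above background on all 18 arrays, so none was kept through the signal of 1 diet only. Dgat2 could not be tested in the same fit because 3 linseed and 4 palm spots were marked by the image software, and it is given with marked spots kept. In that fit all 10 genes were tested and 1, Gpat3, passed, beside 0.901% of 16544 genes. With every probe on its own, 2 of 11 member probes passed, those of Gpat3 and Gpd1, beside 0.754% of 19508 probes.

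**Figure D1:**
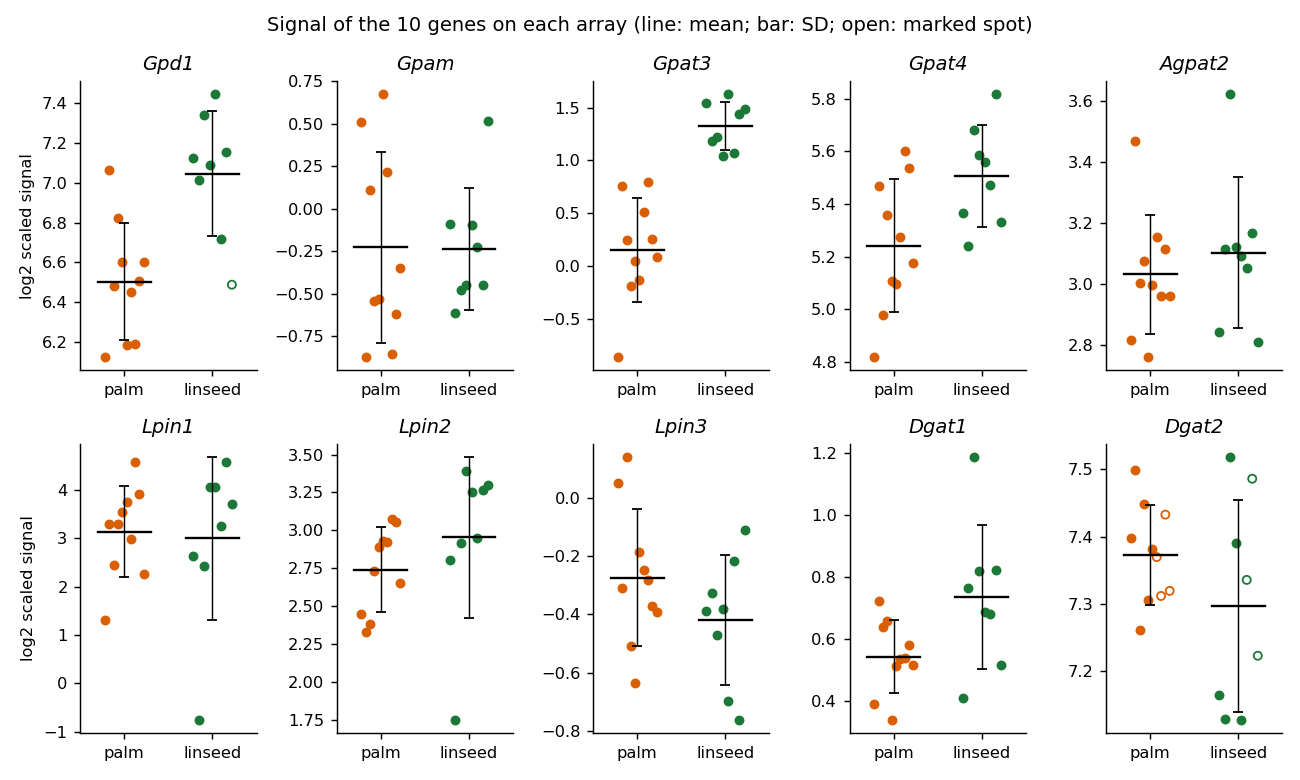
Each point is 1 mouse, with log2 scaled signal on the vertical axis and diet on the horizontal axis, in a panel with its own scale for each of the 10 genes. Lines are means, bars are SD, and open points are spots marked by the image software. Gpat3 is the gene whose 8 linseed and 10 palm points do not overlap.

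Gpd1, which supplies the glycerol backbone, was higher on linseed oil. Its scaled signal was 6.71, 7.13 and 7.45 (lowest, median and highest) on the 7 linseed arrays with an unmarked spot, and 6.12, 6.49 and 7.06 on the 10 palm arrays. The groups overlapped: palm replicate 2, at 7.06, stood above linseed replicates 2 and 6. The difference was 0.63 ± 0.13 (n = 7 linseed and 10 palm, limma, adjusted p = 0.0343). The spot that was left out, on linseed replicate 8, read 6.49, the lowest value of its diet. With that spot kept the difference was 0.55 ± 0.14 (limma, adjusted p = 0.077) and Gpd1 did not pass. Its difference was positive within 4 of 5 slides, at 0.48 to 1.05, and -0.068 within slide 5, whose only linseed array is replicate 8. The call was kept in 14 of 35 other settings.

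The first acylation, the step that commits glycerol 3-phosphate to glycerolipid, is served by 3 members. Gpat3, an acyltransferase of the endoplasmic reticulum known best from adipose tissue, was 2.26-fold higher on linseed oil. Its scaled signal was 1.04, 1.33 and 1.63 (lowest, median and highest) on the 8 linseed arrays and -0.86, 0.16 and 0.80 on the 10 palm arrays. Every linseed array thus stood above every palm array, which held in that direction for 0.157% of all genes tested and for 0.169% with marked spots kept. The difference was 1.18 ± 0.18 (95% interval 0.80 to 1.55, limma, adjusted p = 0.00254), the 18th smallest p of 15949. It was positive within 5 of 5 slides, from 0.60 in slide 4 to 1.67 in slide 1. The call was kept in 34 of 36 other settings, the losses being the fit with replicate numbers as a block and that without slides 4 and 5 (1.35 ± 0.24, n = 5 linseed and 6 palm, limma, adjusted p = 0.0575).

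Gpam, the acyltransferase of the outer mitochondrial membrane, did not pass the test, and its interval allows a change of nearly 0.5 log2 units either way. The brighter of its 2 probes read -0.61, -0.34 and 0.52 (lowest, median and highest) on linseed oil and -0.87, -0.44 and 0.68 on palm oil. Linseed replicate 8 stood above the 7 other linseed arrays, and the groups overlapped throughout. The difference was -0.0092 ± 0.22 (95% interval -0.46 to 0.44, limma, adjusted p = 0.994), and the sign turned in 15 of 36 other settings. The second probe gave 0.066 ± 0.20. Across the 18 mice the probes followed each other closely (r = 0.97 after diet and slide were removed).

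Gpat4, the other enzyme of the endoplasmic reticulum in this step, read 5.24, 5.52 and 5.82 on linseed oil and 4.82, 5.23 and 5.60 on palm oil. The groups overlapped, with palm replicate 1 the lowest and linseed replicate 7 the highest. Its difference was 0.27 ± 0.11 (limma, adjusted p = 0.38), and it passed in none of 36 other settings.

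Because Gpat3 moved and its partners did not pass, the difference between members of a step was itself tested in each mouse. These tests were chosen after the data had been seen, and 7 pairs were compared with exact two-sided permutation tests over 43758 splits, marked spots kept, adjusted over the 7 pairs. The change of Gpat3 exceeded that of Gpat4 by 0.91 ± 0.15 (exact permutation p = 2.29e-05, the smallest these groups can give, adjusted p = 0.00016). It exceeded that of Gpam by 1.19 ± 0.35 (exact permutation test, adjusted p = 0.00677). Both gaps were positive within 5 of 5 slides. The change of Gpat4 against that of Gpam was 0.27 ± 0.31 (95% interval -0.39 to 0.94, exact permutation test, adjusted p = 0.544). Gpat3 had been picked for its own difference, so these tests describe its gap to the other enzymes and are no second line of evidence for its rise.

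**Figure D2:**
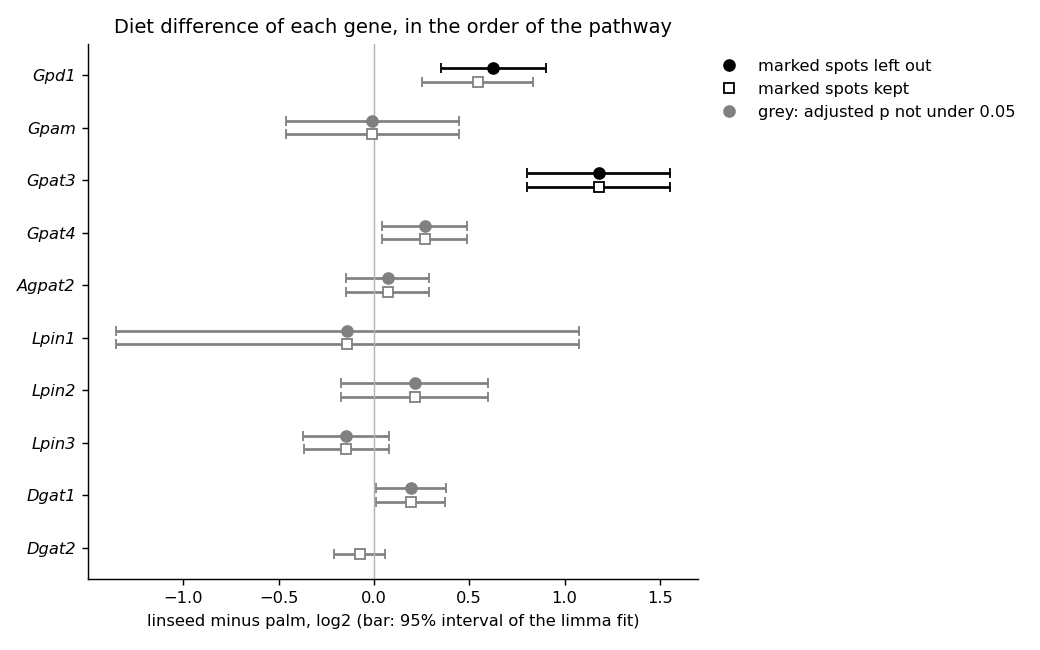
Points are the difference of each gene, linseed minus palm on the log2 scale, with the 95% interval of the limma fit, in the order of the pathway. Circles leave marked spots out and squares keep them, black marks an adjusted p under 0.05, and Dgat2 has a square only. Gpat3 is black in both fits, Gpd1 only with marked spots left out, and Lpin1 has the widest interval, from -1.35 to 1.07.

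Agpat2, which adds the next acyl chain to lysophosphatidic acid, read 2.81, 3.104 and 3.62 on linseed oil and 2.76, 3.00 and 3.47 on palm oil. Linseed replicate 3 and palm replicate 2 were the highest arrays of their diets, and the groups overlapped over nearly their whole range. The difference was 0.072 ± 0.10 (95% interval -0.15 to 0.29, limma, adjusted p = 0.877). Without linseed replicate 3 it was -0.0025.

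The lipins turn phosphatidic acid into diacylglycerol, and Lpin1 was the one that varied most between mice. Lpin1, the lipin whose transcript is best known for rising in fasted liver, read -0.75, 3.48 and 4.58 (lowest, median and highest) on linseed oil and 1.32, 3.29 and 4.58 on palm oil. Linseed replicate 2 stood alone below all other arrays, and the next lowest was palm replicate 1. The range was 40.3-fold on linseed oil and 9.63-fold on palm oil. The residual SD of Lpin1 within diets, 1.32, was larger than that of 99.7% of 16544 genes, whose median was 0.24. The residual SD of Lpin2 was 0.41, larger than that of 80.0% of genes, and that of Lpin3 was 0.23, larger than that of 47.0%. Both Lpin1 probes showed this spread (r = 0.96 over 18 arrays, rho = 0.96, permutation p = 1e-05 for each, r = 0.96 without the 2 arrays farthest from the median). The dimmer probe was not well above background on linseed replicate 2, where only a bound on its level exists.

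The diet difference of Lpin1 was -0.14 ± 0.58 (95% interval -1.35 to 1.07, limma, adjusted p = 0.963), an interval that holds a change of more than 1 log2 unit either way. Without linseed replicate 2 it turned to 0.40, still with no call (limma, adjusted p = 0.789). Within slides it was -1.36 in slide 2, which holds that array, and 0.13 to 0.61 in the other slides. Of the residual variance of Lpin1 44.8% lay between slides, beside a median of 38.0% over all genes.

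Lpin2, a lipin expressed mainly in liver, read 1.75, 3.102 and 3.39 on linseed oil and 2.33, 2.81 and 3.08 on palm oil. Its lowest array was again linseed replicate 2, and 4 linseed arrays read above every palm array. The difference was 0.21 ± 0.18 (95% interval -0.17 to 0.60, limma, adjusted p = 0.763), and 0.38 without linseed replicate 2. Lpin3, the third lipin, read -0.76, -0.38 and -0.11 on linseed oil and -0.63, -0.30 and 0.14 on palm oil. Palm replicates 1 and 3 were the only arrays above 0. Its difference was -0.14 ± 0.11 (95% interval -0.37 to 0.08, limma, adjusted p = 0.712), and it was negative within 4 of 5 slides.

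None of the 3 gaps between lipins passed. The change of Lpin2 exceeded that of Lpin3 by 0.36 ± 0.25 (95% interval -0.17 to 0.89, exact permutation test, adjusted p = 0.298), and without linseed replicate 2 by 0.54 (exact permutation test, adjusted p = 0.0313). Lpin1 against Lpin2 gave -0.35 ± 0.46 and Lpin1 against Lpin3 0.0052 ± 0.67, with intervals that reach past 0.6 log2 units on either side of 0.

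The last acylation is done by DGAT1, which also re-esterifies lipid in the lumen of the endoplasmic reticulum, and by DGAT2, which is tied to newly made fatty acids. Dgat1 read 0.41, 0.73 and 1.19 on linseed oil and 0.34, 0.54 and 0.72 on palm oil. The highest value was again that of linseed replicate 3. In all, 4 linseed arrays stood above every palm array, and the 4 others lay within the palm range. Its difference was 0.19 ± 0.09 (95% interval 0.011 to 0.38, limma, adjusted p = 0.459).

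Dgat2 read 7.13, 7.28 and 7.52 on linseed oil and 7.26, 7.38 and 7.50 on palm oil, marked spots kept. It was the steadiest of the 10 genes, with a residual SD of 0.12 that only 6.88% of genes undercut. The difference was -0.076 ± 0.064 (95% interval -0.21 to 0.06, limma, adjusted p = 0.745). None of the member spots was saturated.

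Although neither DGAT gene passed alone, their changes differed. The change of Dgat1 exceeded that of Dgat2 by 0.27 ± 0.06 (95% interval 0.13 to 0.40, exact permutation p = 0.000457, adjusted p = 0.0016), and the gap was positive within 5 of 5 slides, at 0.12 to 0.48. All 7 marked Dgat2 spots were on slides 4 and 5, and without those slides the gap was 0.35 (exact permutation test, adjusted p = 0.0253). It was lost with another background correction, normexp, at 0.19 (exact permutation test, adjusted p = 0.156). This pair too was chosen after the data had been seen.

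**Figure D3:**
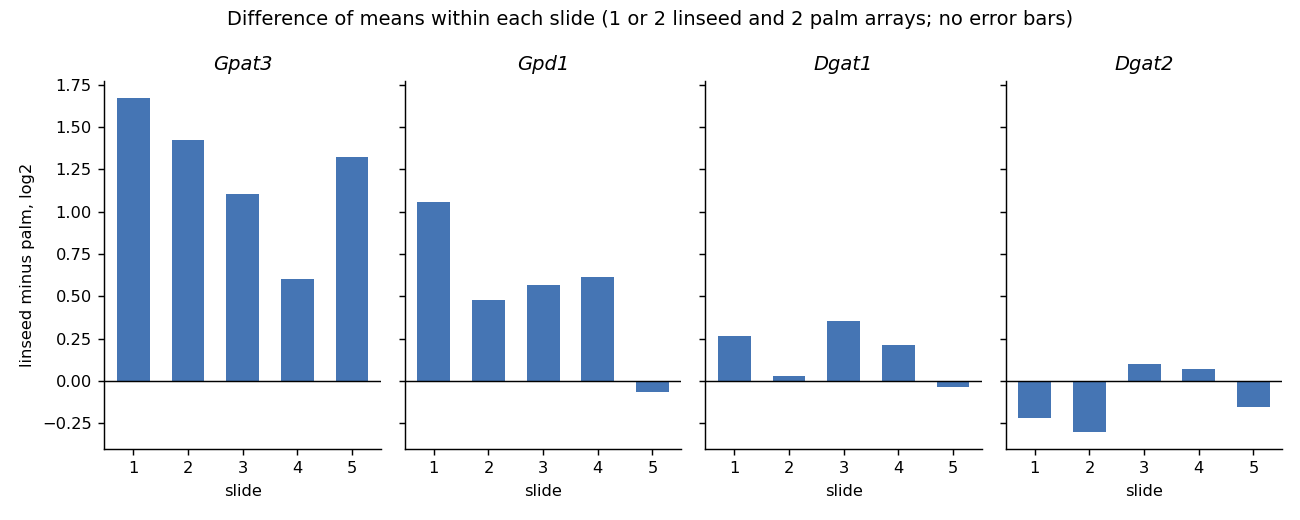
Bars are the difference of means, linseed minus palm on the log2 scale, within each of 5 slides for 4 genes, with marked spots kept. Each slide holds 1 or 2 linseed and 2 palm arrays, so bars carry no error. Gpat3 is positive in every slide, Gpd1 and Dgat1 are below 0 in slide 5, and Dgat2 has both signs.

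Several members varied together among mice. After diet and slide were removed, 15 of 45 pairs of members had an adjusted p under 0.05 (permutation test of Pearson's r), 11 of them positive. For these 15 pairs, between 0.0181% and 19.7% of all genes correlated more strongly with the first gene of the pair, and over 10% of genes did for 5 pairs. By Spearman's rho, Agpat2 with Dgat2, Dgat1 with Dgat2 and Gpat3 with Gpat4 did not pass (permutation test, adjusted p = 0.18, 0.21 and 0.23). Neither did Gpat4 with Agpat2 or Dgat1 (permutation test, adjusted p = 0.0522 for each). Without the 2 arrays farthest from the median of the first gene, r fell to 0.29 for Agpat2 with Dgat2 and 0.28 for Dgat1 with Dgat2. For Gpat4 it fell to 0.44 with Agpat2, 0.39 with Dgat1 and 0.48 with Lpin1. For Gpd1 it went from 0.70 to 0.53 with Gpat4, from 0.63 to 0.43 with Agpat2 and from -0.66 to -0.51 with Gpam. For Lpin3 it was 0.66 with Gpam and -0.72 with Gpat4, beside 0.74 and -0.70 on all arrays. These p-values do not count the degrees of freedom used by the removed terms, so they are somewhat too small, and the points share array, scaling and RNA. The pair with the largest r was Agpat2 and Dgat1 (r = 0.94, rho = 0.92, permutation p = 1e-05 for each, the smallest 100000 resamples can give, adjusted p = 0.00045). It was 0.89 without the 2 arrays farthest from the median of Agpat2. Of all genes 0.0181% followed Agpat2 with a larger r of either sign.

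Lpin1 and Lpin2 also varied together (r = 0.84, rho = 0.82, permutation p = 5e-05 and 6e-05, adjusted p = 0.0009 for each). The correlation was 0.79 without the 2 arrays farthest from the median of Lpin1. Gpd1 and Lpin3 ran in opposite directions (r = -0.81, rho = -0.84, permutation p = 6e-05 and 3e-05, adjusted p = 0.0009 and 0.000675), and so did Gpam and Gpat4 (r = -0.73, rho = -0.68, permutation p = 0.00063 and 0.00261, adjusted p = 0.00576 and 0.0196). These held at -0.82 and -0.70 without the 2 arrays farthest from the median of the first gene. The correlation of Gpat3 with Gpat4 (r = 0.56, rho = 0.41, permutation p = 0.0149 and 0.0972, adjusted p = 0.0466 and 0.233) fell to 0.23 in that way and rests on those arrays.

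**Figure D4:**
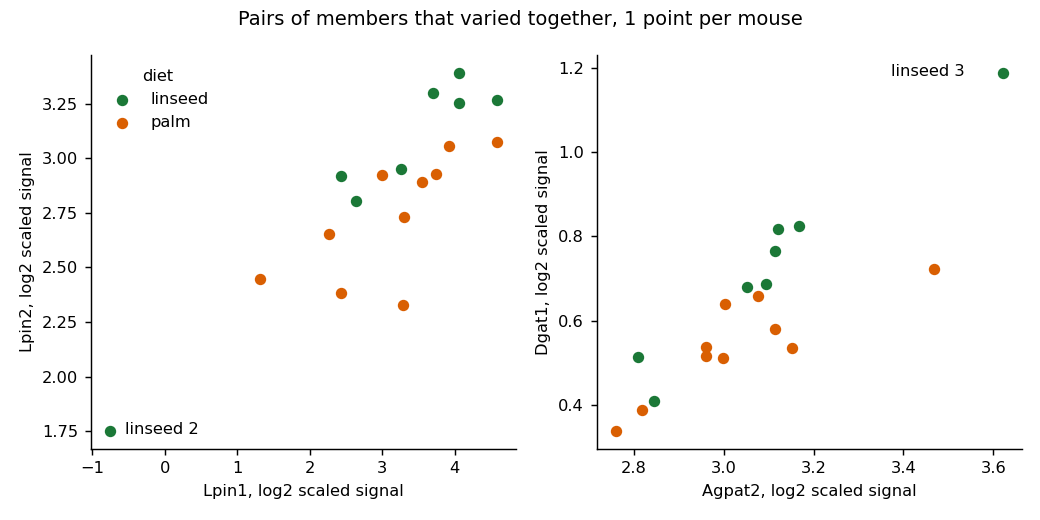
Each point is 1 mouse, coloured by diet, with the log2 scaled signals of Lpin1 and Lpin2 on the left and of Agpat2 and Dgat1 on the right, before diet and slide are removed. Linseed replicate 2 is the lowest point on both axes of the left panel and linseed replicate 3 the highest on both axes of the right panel.

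By the same residuals, the genes most like Gpat3 over the 18 arrays were Ttpa, the alpha-tocopherol transfer protein (r = 0.90), Nt5e, a nucleotidase of the cell surface (0.86), Ppp2r2d, a subunit of protein phosphatase 2A (0.86), Treh, trehalase (0.85), and Megf9 (0.83). Being the highest of all genes compared, these values carry no p. Without the 2 arrays farthest from the median of Gpat3, r was 0.84, 0.81, 0.75, 0.72 and 0.77 in the same order. Of these 5 genes Nt5e (difference 0.88, limma, adjusted p = 0.00217) and Ppp2r2d (0.38, limma, adjusted p = 0.0227) also differed by diet. For Lpin1, a list added after its spread had been seen, they were Mtss1 (0.95), Rab3gap1 (0.95), E030018B13Rik (0.94), Cdip1 (0.94) and Rnf169 (0.92), and none of these 5 passed the diet test.

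Promoter windows of RefSeq build GRCm38.p6 were at hand for 6 of the 10 genes, as 10 windows of 300 bases. They are shown for Gpat3, whose diet difference was largest, and for Lpin1 and Lpin2, which varied together. The 250 bases before the annotated start are printed, 5′ to 3′ on the gene's strand, at chr5:100845979-100846228 (plus) for Gpat3, chr12:16610967-16611216 (minus) for Lpin1 and chr17:71183282-71183531 (plus) for 1 of the 3 Lpin2 windows. Capitals mark the match to the E-box CACGTG.
Gpat3 promoter: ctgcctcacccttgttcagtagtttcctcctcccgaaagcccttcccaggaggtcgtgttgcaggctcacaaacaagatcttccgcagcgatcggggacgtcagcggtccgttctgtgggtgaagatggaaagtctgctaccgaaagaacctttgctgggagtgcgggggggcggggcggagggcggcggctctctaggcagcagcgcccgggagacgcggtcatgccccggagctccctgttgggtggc
Lpin1 promoter: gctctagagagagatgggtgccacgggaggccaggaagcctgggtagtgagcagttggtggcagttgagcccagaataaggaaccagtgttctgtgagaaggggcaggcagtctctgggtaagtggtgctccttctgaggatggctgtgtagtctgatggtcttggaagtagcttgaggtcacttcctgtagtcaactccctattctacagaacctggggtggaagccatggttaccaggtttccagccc
Lpin2 promoter: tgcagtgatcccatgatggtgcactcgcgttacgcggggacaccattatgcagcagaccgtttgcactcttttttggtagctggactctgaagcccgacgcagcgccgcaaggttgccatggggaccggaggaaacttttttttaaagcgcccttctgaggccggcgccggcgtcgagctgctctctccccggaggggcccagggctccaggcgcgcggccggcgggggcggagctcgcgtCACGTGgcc

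Both strands of all 10 windows were searched for 3 motifs, and no matches overlapped. The DR1 element, a tandem of AGGTCA with 1 base between, the form bound by PPAR and RXR, was in none of them and in 0.0396% of 32851 windows of all genes. The sterol element TCACNCCAC was in none and in 1.24% of all windows. The E-box CACGTG was in 7.15% of all windows, at bases 242 to 247 of the Lpin2 window shown and at bases 273 to 278, after the start, of 1 Lpin3 window. No match says only that these letters are not in the window.

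Of the genes around the route, few passed. In glycerol 3-phosphate supply 0 of 8 tested genes passed, against the 0.759% of all genes, with a median difference of 0.16. The smallest p there was that of Gpd1l, a relative of Gpd1 (0.35 ± 0.09, limma, adjusted p = 0.101). Of other acyltransferases 0 of 9 passed, with a median of -0.016. Mogat2, which acylates monoacylglycerol, had the smallest p (-0.88 ± 0.32, limma, adjusted p = 0.321). The signal of Mogat2 was dim, with a mean of -4.29 on linseed oil and -3.42 on palm oil, where small signal differences give large log2 differences. Of the acyl-CoA synthetases, which activate the fatty acids the route uses, 0 of 7 passed, with a median of 0.0098 and the smallest p at Acsl1 (0.29 ± 0.09, limma, adjusted p = 0.242). In these 3 lists 2 of 8, 1 of 9 and 2 of 7 genes had an unadjusted p under 0.05, beside 10.2% of all genes.

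Where the route branches to phospholipids, 1 of 14 genes passed, beside 0.759% of all genes. It was Chpt1, which joins choline phosphate to diacylglycerol (adjusted p = 0.0407 by limma), and the list's median was 0.066. Among lipin regulators and partners 0 of 7 passed. Ppara, the fatty acid sensor, had the smallest p of that list (0.29 ± 0.09, limma, adjusted p = 0.165), and its coactivator Ppargc1a gave -0.045 ± 0.22. With marked spots kept, where another probe stood for Ppara, its difference was 0.15 ± 0.07 (limma, adjusted p = 0.455). Of the transcriptional regulators 0 of 9 passed. Pparg gave 0.44 ± 0.19 (limma, adjusted p = 0.429) and Srebf1, which drives fatty acid synthesis, 0.096 ± 0.24. The medians of these lists were -0.038 and 0.096. An unadjusted p under 0.05 was found for 5 of 14 phospholipid genes, 1 of 7 lipin partners and 1 of 9 transcriptional regulators, beside 10.2% of all genes.

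On the side of breakdown and storage, 1 of 12 triglyceride hydrolysis genes passed, beside 0.759% of all genes. It was G0s2, an inhibitor of the lipase PNPLA2 (ATGL). The lowest linseed array of G0s2 stood above its highest palm array, which held for 0.157% of all genes tested. Pnpla2 itself gave 0.18 ± 0.15 (limma, adjusted p = 0.753), and the list's median was 0.15. In droplet and lipoprotein assembly 1 of 11 genes passed, Cidec, beside the same 0.759% of all genes. The median there was 0.28, the highest of the 8 lists beside -0.0038 over all genes. In these lists 3 of 12 and 4 of 11 genes had an unadjusted p under 0.05, beside 10.2% of all genes.

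**Figure D5:**
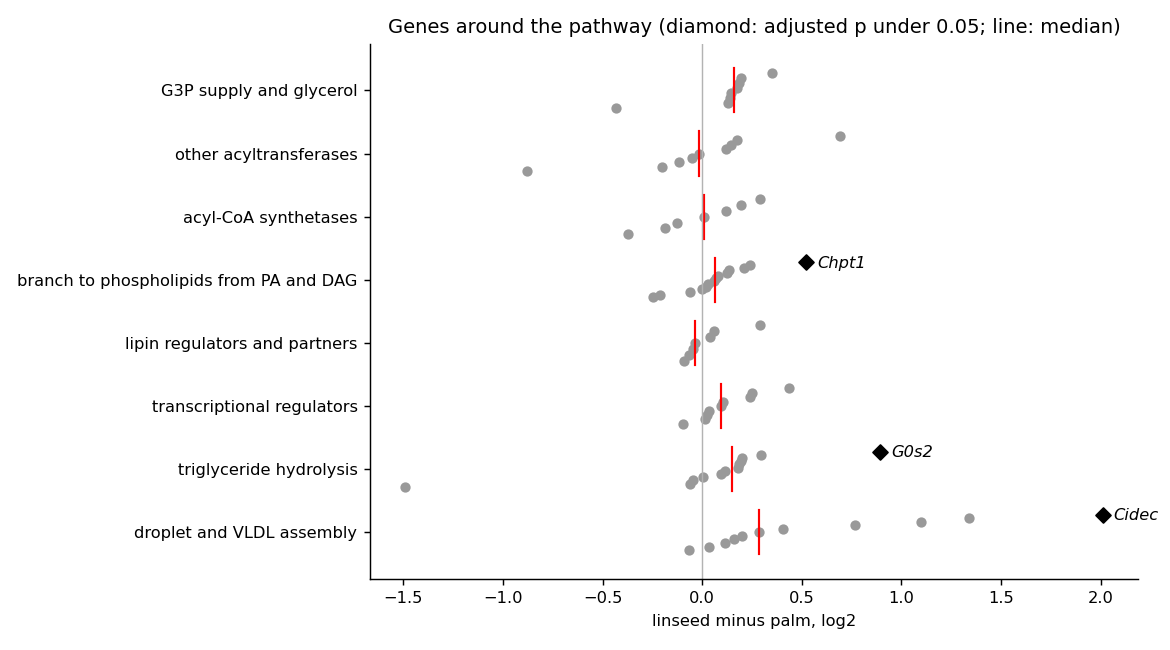
Points are genes, placed by the difference linseed minus palm on the log2 scale, in 8 lists of genes around the pathway. Diamonds have an adjusted p under 0.05 and lines are list medians. Chpt1, G0s2 and Cidec are the 3 genes of these lists that passed.

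Markers of fat tissue differed between arrays. Of 9 adipocyte markers 4 were tested, with a median difference of 0.74. An unadjusted p under 0.05 was found for 2 of the 4, beside 10.2% of all genes, and 0 passed by limma, beside 0.759%. Plin4 and Lipe were also counted in the lists above. The sum of all 9, on the linear scale relative to the array's 75th percentile, was 5.96 to 44.5 on linseed oil and 2.48 to 15.96 on palm oil. Cfd was the largest part of the sum on 8 of the 18 arrays, Plin4 on 5 and Fabp4 on 5. Lep was not well above background on any array and Adipoq only on 3 linseed arrays and 1 palm array. The sum and Adipoq ranked the arrays differently. Linseed replicate 1 had the highest sum, 44.5, with Cfd at 5.17 and Adipoq at -6.96. Palm replicate 10 had the highest Adipoq of its diet, -1.39, and a sum of 12.4. Linseed replicate 3 was high in both (31.1 and -0.49). How Gpat3 followed Adipoq alone was not tested. After diet and slide were removed, Gpat3 followed the adipocyte sum with r = 0.60 (rho = 0.51, permutation p = 0.00656 and 0.0311, adjusted over 3 genes p = 0.0197 and 0.0932, r = 0.56 without the 2 arrays farthest from the median). Gpd1 gave r = 0.35 and Lpin1 r = 0.27, neither under an adjusted p of 0.05.

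Adipoq was highest on linseed replicates 3 and 6 and palm replicate 10, linseed replicate 6 had muscle markers (sum 40.8) and palm replicate 1 pancreas markers (8.67). Without these 4 arrays, a choice made after the data had been seen, 34 genes passed and the Gpat3 difference was 1.10 (n = 6 linseed and 8 palm, limma, adjusted p = 0.0185). Gpd1 could not be tested there, since 5 linseed values were left. Arrays that stayed in included linseed replicate 1, which had the highest adipocyte sum (44.5). Palm replicate 2 and linseed replicate 7, with muscle marker sums of 1.06 and 0.95, stayed in too. The part of fat cells in the Gpat3 and Gpd1 differences was thus not tested.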

How the data were processed

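Liver RNA of 18 mice (LIN 8, PALM 10, by sample title) was labelled with Cy3 and hybridised to 1 array each. The labels number the arrays as replicates, and each was taken to be 1 mouse. Per the file headers, spot intensity values were made by the authors in Feature Extraction 9.5.3.1, which subtracts background within an array and leaves arrays unscaled. The tools in the submitters' processing notes are Feature Extraction 9.5 and limma. The authors' deposited value table holds values of 18060 probes, taken here to be log2, with all 12 member probes among them. Its medians per array were 7.85, and its rank correlation with the processed signal was 0.991 to 0.998. Its direction follows from that, but a rank correlation cannot show the log2 scale. How the table was scaled is not given in the sources used, and it was tried as an alternative.

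The processed signal was taken to log2 and each array's 75th percentile subtracted, over non-control probes. Control spots were left out, and so were spots marked as non-uniform or population outliers (238 to 1703 per array). A probe was kept if well above background on at least 8 arrays with at least 6 values in each diet, and each gene was represented by its brightest kept probe. Names were updated through RefSeq (GRCm38.p6, names and promoters only): 26055 probes by accession, 3195 by symbol and 930 by synonym, while 9249 kept the file's name. The diet test was that of limma 3.58.1 under R 4.3.3 (eBayes after lmFit, both sides, no covariate, Benjamini-Hochberg over all genes). The procedure was also run on simulated data with independent noise for each gene and no slide structure. That run does not cover slide effects or genes that vary together. Correlations and the gaps between members of a step kept marked spots, used 100000 permutations or the exact test, and were adjusted over the pairs. The 5 slides coincide with the scans and each holds both diets. Slide 1 is the set of arrays whose header has no barcode, assumed to share a slide. Residual structure by slide gave a consensus correlation of 0.216.

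The members and the gene lists were chosen with earlier results of these data known. Named genes are all members, every gene of the 8 lists that passed, the 1 gene of each list with the smallest p, Srebf1, Pparg, Ppara, Ppargc1a, G0s2 and Pnpla2, and the 5 genes most like the member with the smallest p. Alternatives were background correction, scaling, filter, marked spots, probe choice, slide and replicate blocks, the variance model, the authors' table, slides left out and each array left out. Precision is limited by the number of arrays and by signal over background.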

Additional observations from a re-analysis of the deposited data

Results flagged for a closer look

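In a check of the highest or lowest array of each diet, 5 of 46 sets of values held an array far from the others (Dixon's test, groups of 8 or 10), where chance gives about 1 in 20. Linseed replicate 2 accounted for 3 of the 5. On it Lpin1 read -0.753 and Lpin2 1.75, both the lowest of all 18 arrays, and G0s2 read 4.74, the highest linseed value. Agpat2 read 3.62 on linseed replicate 3. Gpam read 0.516 on linseed replicate 8, by its brighter probe. The second probes of Lpin1 and Gpam, lowest and highest on these same arrays among the linseed arrays, did not meet the test.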

How the results depend on the processing

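The number of genes that passed ranged widely, and the cause was not tested. Against 121 it was 68 with normexp background correction, 42 with the percentile over unmarked spots and 44 with no filter (more genes tested). It was 200 with slide as a random block, 19 without slides 4 and 5 and 30 without slide 1. Without the 4 arrays left out above for their markers it was 34. Leaving out 1 array gave 51 to 142 genes. It moved the count by more than 1.5 times for linseed replicates 2, 3, 5 and 7 (59, 59, 51 and 61) and palm replicates 1, 5, 6, 9 and 10 (64, 62, 79, 63 and 71). Of the 2 members that passed, 1 did (Gpat3) with the percentile over unmarked spots, no filter, marked spots kept, slide as a fixed block, the authors' table, without slide 1 and without the 4 arrays, and 0 did without slides 4 and 5. Leaving out 1 array left 1 to 2. Gpd1, at 0.57 to 0.69, lost its call without any of linseed replicates 1, 2, 3, 4, 5 and 7 or palm replicates 1, 5, 6, 8, 9 and 10, and within slide 5 it was -0.068.

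Whether replicate numbers pair the samples was not settled. Of the same-numbered pairs, 5 of 8 correlated above 0.1 (-0.22 to 0.47 over all 8) and for 2 of 8 the best match was the same number. The pairs above 0.1 were replicates 1 to 5, whose arrays share a slide, as do those of replicate 7 (0.086). The arrays of replicates 6 and 8 lie on different slides. With the replicate block on replicates 1 to 8 of each diet, 18 genes and 0 members passed, and Gpat3 was 1.18 (limma, adjusted p = 0.0693). The same arrays without the block, added after the data had been seen, gave 46 genes and 1 member.

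Differences near 0 turned sign, with no call. Gpam was 0.033 with median scaling and 0.032 in the authors' table, 0.028 with the mean of probes or slide as a fixed block, 0.0085 with slide as a random block, 0.045 without slide 1, and 0.11 without the 4 arrays, and -0.12 to 0.091 with 1 array left out. Agpat2 was -0.042 without the 4 arrays and -0.0025 to 0.12 with 1 array left out, and Lpin1 was -0.37 to 0.40. The gap between Lpin1 and Lpin3 was -0.045 with quantile scaling, -0.018 in the authors' table, -0.24 without slides 4 and 5, -0.027 without slide 1, -0.28 without the 4 arrays, and -0.27 to 0.55 with 1 array left out. That between Lpin1 and Lpin2 was -0.53 to 0.012, and that between Lpin2 and Lpin3 0.26 to 0.54, with 1 array left out. The gap between Dgat1 and Dgat2 was 0.19 with normexp and lost its call. The gaps of Gpat3 to Gpam and Gpat4 kept their calls in all 28 settings tried, some of which could not change them. Median scaling and the percentile over unmarked spots shift both genes of an array alike. Leaving marked spots out removed no spot of these genes. For dim probes such as the second Lpin1 probe, signal over background limits what can be seen.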
